A study of Mus musculus with 2 samples.

Results

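The genes described here encode the secreted ligands and the receptors of the VEGF and angiopoietin systems, the main signals through which vessels grow and mature. Every non-control probe of Vegfa, Vegfb, Vegfc, Flt1, Kdr, Flt4, Angpt1, Angpt2, Tek and Tie1 was taken, with the gene found through the RefSeq accession that the array files give for the probe. All 10 genes were found, with 12 probes at 22 spots, out of 20658 named genes, 55674 probes and 59305 spots. Members were matched by name and not by a measured value, although the group itself was picked with earlier results of these data known.

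Expression was measured in ovaries from mice aged 2 weeks, cut lengthwise into symmetrical parts and kept for 3 days in culture with ligands of the tachykinin receptors (TKRs), the receptors of substance P and the neurokinins. One group received TKR agonists, namely [Sar9, Met(O2)11]-SP for TACR1, GR-64349 for TACR2 and a succinyl derivative of a substance P fragment for TACR3. The other received TKR antagonists, namely GR-94800 for TACR2, SB218795 for TACR3 and an antagonist for TACR1. The dose was 1 μM for each ligand. The data show which ovarian transcripts differed between 1 RNA of pieces given TKR agonists and 1 of pieces given TKR antagonists. With 1 array a group, treatment cannot be told apart from differences between the pieces. Ovaries cultured in medium alone were not analysed here, so a difference cannot be assigned to the agonists or to the antagonists. The methods state that ovaries were cut in this way to limit error from differences between ovaries, but do not say how the pieces were assigned to these arrays. The mouse strain and the number of ovaries behind each RNA are not given in the sources used here.

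Each group was measured on 1 single-colour Agilent mouse array, so no value below has a spread between ovaries and none was tested. An error written after ± is the error that the image software gives for the signal, carried to the log2 ratio. It was 10% of the signal for bright spots, and it covers the measurement of a spot only. Each array was divided by the 75th percentile of its signals, which was 672 units on the agonist array against 569 on the other, and a log2 ratio is log2 of agonists over antagonists after this division. Signals are given unscaled, in the software's units. The software marked 65.4% and 61.6% of spots as well above background, and none as saturated. A probe is called measured when it was well above background on both arrays, which held for 33073 probes and for 15260 genes. A gene with several probes is represented by its probe of highest mean signal. The median log2 ratio over the measured genes was -0.10, with 5th and 95th percentiles of -0.56 and 0.89, and 37.7% of them had a ratio above 0. All 12 oocyte genes and all 12 granulosa cell genes listed were well above background on both arrays. So were 15260 of the 20658 named genes, which makes this a weak check of the ovary label.

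VEGF-A is released by cells short of oxygen and by growing follicles, and binds FLT1 and KDR on endothelial cells. VEGF-C binds FLT4 and drives growth of lymphatic vessels. Angiopoietin 1, made by cells around vessels, activates the receptor TEK (TIE2) and keeps vessels stable, whereas angiopoietin 2, made by endothelium itself, often opposes it and loosens vessels, and TIE1 is an orphan relative that modulates TEK. In the ovary these signals accompany the capillary net that forms in the theca around growing follicles.

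The sequences upstream of these genes were looked up because receptor genes of endothelium are widely controlled by ETS factors. RefSeq promoters of build GRCm38.p6 were found for 8 of the 10 genes, in 9 windows of 250 bases taken as upstream of a start site. The windows of Flt1 and Kdr and the second window of Vegfa lay wholly inside the annotated gene. Of the Tek window, 203 bases did. Angpt1 and Angpt2 were not matched. Windows are shown for the receptor gene with the highest ratio among those measured on both arrays (Tie1), for a receptor gene measured on 1 array only (Flt4) and for the ligand with the ratio nearest 0 (Vegfb). They lie at chr4:118489850-118490099 on the minus strand for Tie1, chr11:49609429-49609678 on the plus strand for Flt4 and chr19:6987652-6987901 on the minus strand for Vegfb, outside the annotated gene, and are written 5′ to 3′ on the strand of the gene. Capitals mark the ETS core letters GGAAG or, on the other strand, CTTCC.
Tie1 promoter: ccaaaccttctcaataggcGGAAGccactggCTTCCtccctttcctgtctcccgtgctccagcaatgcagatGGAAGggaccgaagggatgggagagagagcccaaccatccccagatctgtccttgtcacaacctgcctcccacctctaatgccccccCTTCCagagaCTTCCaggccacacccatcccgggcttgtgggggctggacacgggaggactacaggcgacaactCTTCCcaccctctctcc
Flt4 promoter: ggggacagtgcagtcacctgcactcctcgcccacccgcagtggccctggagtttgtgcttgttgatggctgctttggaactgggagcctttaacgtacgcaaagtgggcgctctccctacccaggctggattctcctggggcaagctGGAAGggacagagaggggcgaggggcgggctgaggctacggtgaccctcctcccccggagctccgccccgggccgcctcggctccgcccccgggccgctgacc
Vegfb promoter: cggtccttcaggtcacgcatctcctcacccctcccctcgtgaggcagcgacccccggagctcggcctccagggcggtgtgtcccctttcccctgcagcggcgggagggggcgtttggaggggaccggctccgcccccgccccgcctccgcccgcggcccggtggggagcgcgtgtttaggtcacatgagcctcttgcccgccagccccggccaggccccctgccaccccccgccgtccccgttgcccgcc

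The Tie1 window held 6 matches to the ETS letters, a number reached by 113 of the 32851 RefSeq promoters of the same length (0.344%), where the median was 1. The Flt1 window held 3 matches, the windows of Flt4 and Kdr held 1, and those of Tek, Vegfb and Vegfc held 0. In all, 6 of the 9 windows held a match, against 64.1% of all promoters. The hypoxia response letters ACGTG, or CACGT on the other strand, were in 1 of the 9 windows, the second window of Vegfa, against 16.6% of all promoters. An ETS match and a hypoxia match can share 1 base at most, whereas the letters CACGTG hold the hypoxia letters of both strands. A match describes the sequence and is not evidence of binding.

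Among the 10 genes the receptors Tie1 and Flt1 stood higher on the agonist array, by 3.07-fold and 2.45-fold. Tek and Flt4 were well above background there only, with bounds of 4.10-fold and 2.34-fold that leave out the software error. The ligand Angpt2 was 1.34-fold lower after scaling, but within the software error of no difference without scaling. The probes of the receptor Kdr had opposite signs, and the VEGF ligands were between 1.03-fold and 1.57-fold. Of the 8 genes measured on both arrays, 2 were at least 2-fold higher (Flt1 and Tie1) and 0 were lower by that much, where the shares among all measured genes were 4.01% and 0.577%. At a threshold of 1.5-fold the numbers were 4 and 0, against 9.26% and 4.28% of all measured genes. By probe, 2 of the 10 measured probes were past 2-fold upward and 0 downward, against 2.69% and 0.705% of all measured probes. The median log2 ratio of the 8 genes was 0.44, and 6 of the 8 were above 0. With Tek and Flt4 added at their lower bounds, the median was 0.68. Both passed the background filter only with the agonists, and no gene of the group passed it only with the antagonists. Over all probes, 2874 passed only with the agonists and 771 only with the antagonists. The rise to 0.68 thus follows from which genes were added and is not separate evidence of a higher group.

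**Figure D1:**
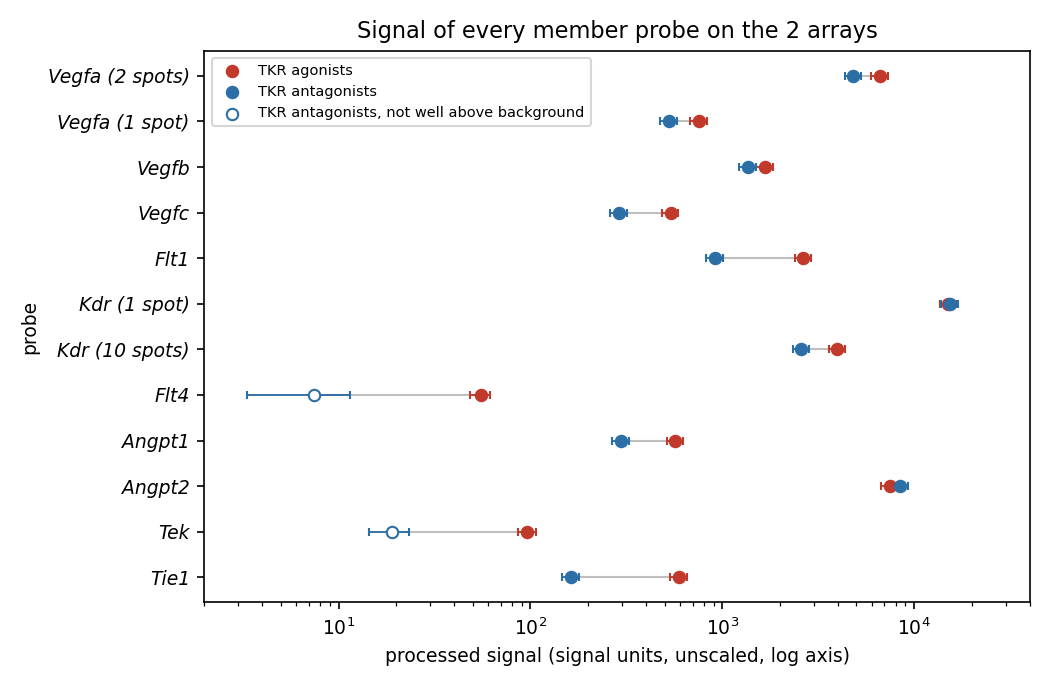
Processed signal (log axis, signal units, unscaled) of each of the 12 probes on the TKR agonist array (red) and the TKR antagonist array (blue), with bars for the software's signal error and open circles for signals not well above background. The widest gaps are those of Tek, Flt4, Tie1 and Flt1, whereas the points of Angpt2 and of the 1-spot Kdr probe nearly coincide.

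Vegfa, the principal growth factor for endothelium, was measured by a probe at 2 spots (NM_001025250) and by a probe at 1 spot (NM_001025257). The 2 spots read 6595 and 6652 with the agonists and 4557 and 5087 with the antagonists. Both agonist spots were above both antagonist spots before scaling. After scaling the log2 ratio was 0.22 ± 0.20, with 0.13 and 0.30 for the single spots, which is 1.16-fold. The other probe read 756 and 525, a log2 ratio of 0.28 ± 0.20, so the probes differed by 0.07. Vegfa was thus slightly higher with the agonists by an amount close to the error, and stood at percentile 79.2 of all measured genes.

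Vegfb, a ligand of FLT1 that is linked to fatty acid use and vessel survival rather than sprouting, read 1667 with the agonists against 1365 with the antagonists. Its log2 ratio of 0.05 ± 0.20 was within the error of 0. Vegfc, the lymphatic growth factor, read 537 and 289, a log2 ratio of 0.65 ± 0.21 or 1.57-fold, at percentile 92.0. Vegfc therefore had the highest ratio of the 3 VEGF ligands. Its ratio exceeded that of Vegfa by 0.43 with an error of 0.29.

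Flt1 (VEGFR1), which binds VEGF-A tightly and in its soluble form traps it, read 2647 with the agonists against 912 with the antagonists. The log2 ratio was 1.30 ± 0.20, or 2.45-fold, at percentile 97.6 of the measured genes. The difference is several times the measurement error of its 1 spot, but with 1 array a group the spread between ovaries is unknown.

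Kdr (VEGFR2), the receptor that carries most of the mitogenic signal of VEGF-A, gave different readings with its 2 probes, both assigned to NM_010612. The brighter probe, at 1 spot, read 15076 with the agonists and 15399 with the antagonists. Its log2 ratio was -0.27 ± 0.20, which is 1.21-fold lower with the agonists, at percentile 24.5. The dimmer probe, at 10 spots, spanned 3651 to 4200 on the agonist array (mean 3979 ± 149, SD over spots). It spanned 2455 to 2710 on the antagonist array (mean 2584 ± 83.3). Every one of its 10 agonist spots lay above every antagonist spot. Its log2 ratio was 0.38 with an SD of 0.07 over spots, which is 1.30-fold higher with the agonists. The repeated spots share 1 RNA and 1 labelling, so they show how precisely the probe was read and not how ovaries vary.

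**Figure D2:**
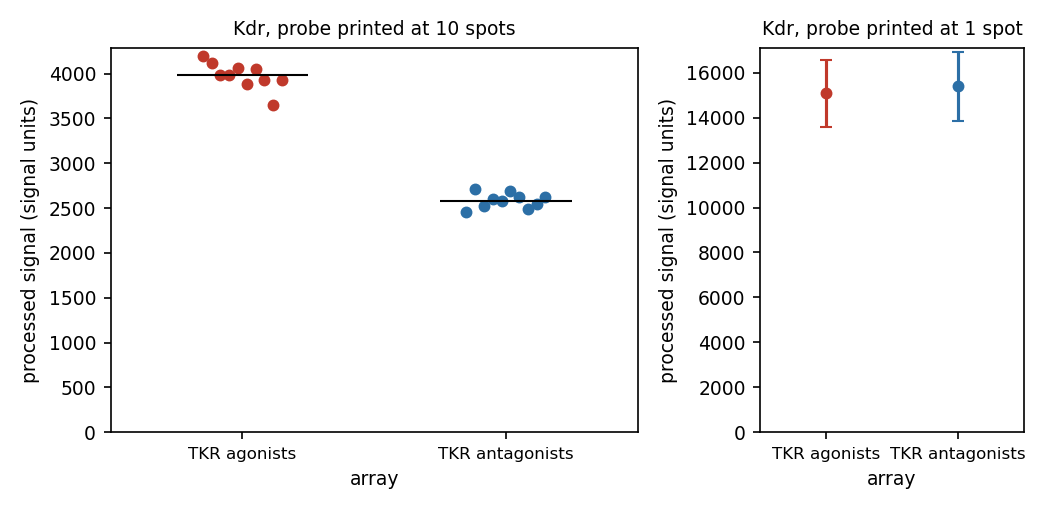
Processed signal (signal units, from 0) at the 10 spots of the dimmer Kdr probe on each array (left, black line the mean) and at the 1 spot of the brighter probe (right, bars the software's signal error). The 10 spots separate fully between the arrays at 3651 to 4200 against 2455 to 2710, whereas the brighter probe read 15076 and 15399.

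The gap of 0.65 between the log2 ratios of the Kdr probes is wide for these arrays. Among 3177 genes with 2 measured probes the median gap was 0.15, and 195 genes (6.14%) had a gap at least as wide as that of Kdr. With the mean of the probes in place of the brighter one, the ratio of Kdr was 0.05. The direction for Kdr thus depends on the probe, and no direction is given for the gene.

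Flt4 (VEGFR3), the receptor of VEGF-C on lymphatic endothelium, was dim. It read 55.0 on the agonist array, well above background, and 7.42 on the antagonist array, where it was not well above background. The lowest signal well above background on the antagonist array was 19.9, so only a bound is given. For Flt4 it was 2.34-fold in favour of the agonists. A bound takes the antagonist signal at that floor, or at its reading where that is higher, and leaves out the software error. Of the genes that passed on the agonist array only, 14.4% had a bound of at least 2-fold.

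Against each other, the VEGF receptors did not share 1 ratio. Flt1 exceeded the brighter Kdr probe by 1.57 on the log2 scale with an error of 0.28, and the ratio of Flt1 was also above that of the dimmer Kdr probe, which was 0.38.

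Angpt1, the stabilising ligand of TEK, read 570 with the agonists against 295 with the antagonists. Its log2 ratio was 0.71 ± 0.21, or 1.63-fold, at percentile 92.9. Angpt2, the ligand released by endothelium that often opposes it, read 7486 and 8467, a log2 ratio of -0.42 ± 0.20. Angpt2 was thus 1.34-fold lower with the agonists after scaling, at percentile 10.4, and had the lowest ratio among the 8 measured genes. Without scaling its log2 ratio was -0.18, and with the spike-in controls -0.14, both within the error of 0. The ratio of Angpt1 exceeded that of Angpt2 by 1.13 on the log2 scale with an error of 0.29, and this difference does not depend on how the arrays are scaled by a constant.

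Tek (TIE2), the signalling receptor of both angiopoietins, read 96.5 with the agonists against 18.9 with the antagonists. The antagonist reading was not well above background and lay just under the lowest signal that was. The bound for Tek, 4.10-fold in favour of the agonists, is thus close to the reading itself, 4.32-fold (log2 2.11 ± 0.38). Given that error, the ratio of Tek could be below its bound. Tie1, the orphan partner of TEK, was measured on both arrays, with 593 for the agonists and 163 for the antagonists. The log2 ratio of Tie1 was 1.62 ± 0.21, or 3.07-fold, at percentile 98.7. Tie1 and the bound of Tek were thus past 2-fold, although the bound of Tek was 0.60 on the log2 scale, below 2-fold, with normexp background correction. The angiopoietin genes differed in sign. The ratio of Tie1 exceeded that of Flt1 by 0.32 with an error of 0.29, which is close to the error, and that of the brighter Kdr probe by 1.89 with an error of 0.29.

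**Figure D3:**
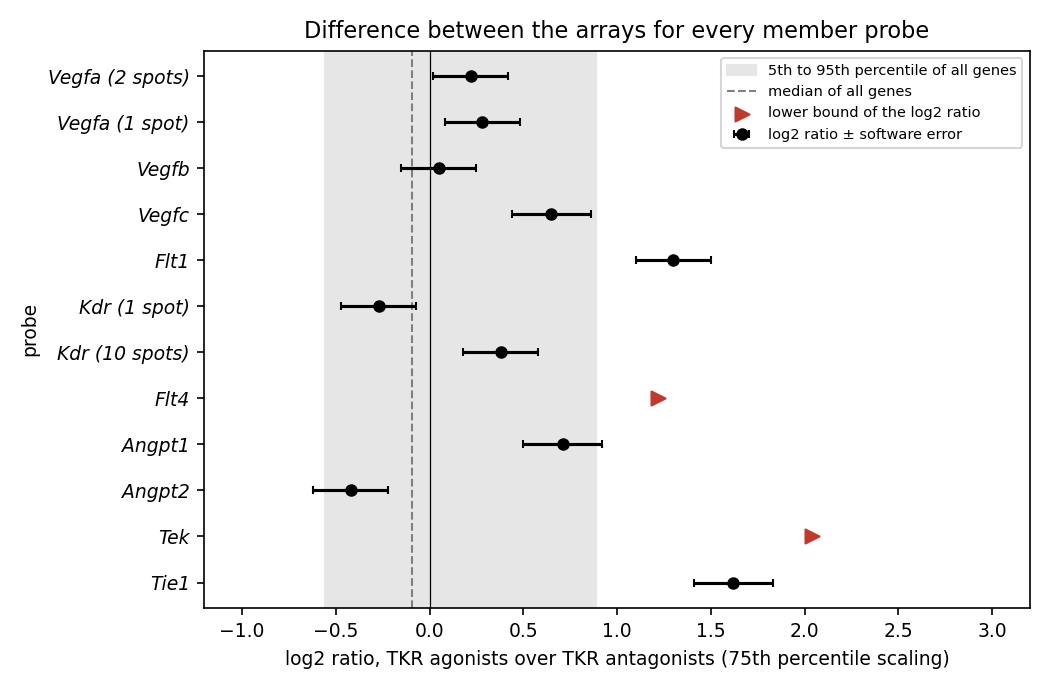
Log2 ratio (TKR agonists over TKR antagonists, 75th percentile scaling) of the 12 probes with bars for the software error, lower bounds for Flt4 and Tek as triangles, and the median and the 5th to 95th percentile range of all measured genes in grey. Flt1 and Tie1 lie right of the grey range at 1.30 and 1.62, and Angpt2 and the 1-spot Kdr probe lie left of 0 at -0.42 and -0.27.

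A scaling by a constant moves all ratios together, whereas quantile, loess and normexp move them unequally. Without scaling the median over all measured probes was 0.14 in place of -0.10, and with the spike-in controls it was 0.18. Relative to all genes, Tie1 stayed between percentiles 98.6 and 99.1, Flt1 between 97.6 and 98.9, and Angpt2 between 10.4 and 14.9. These ranks cover the scalings, normexp, medians over spots and outlier spots kept. They were not computed with the mean of a gene's probes or with other filters on dim signals. Tie1 had no ratio with bright probes only. The log2 ratio of Angpt2 was below 0 in every setting that gave a value, from -0.48 to -0.14. Vegfb was at -0.01 when the arrays were scaled on their medians and at 0.32 with the spike-in controls, so it has no direction. The bounds of Flt4 and Tek fell to 0.48 and 0.60 on the log2 scale under another background correction (normexp), below 2-fold.

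**Figure D4:**
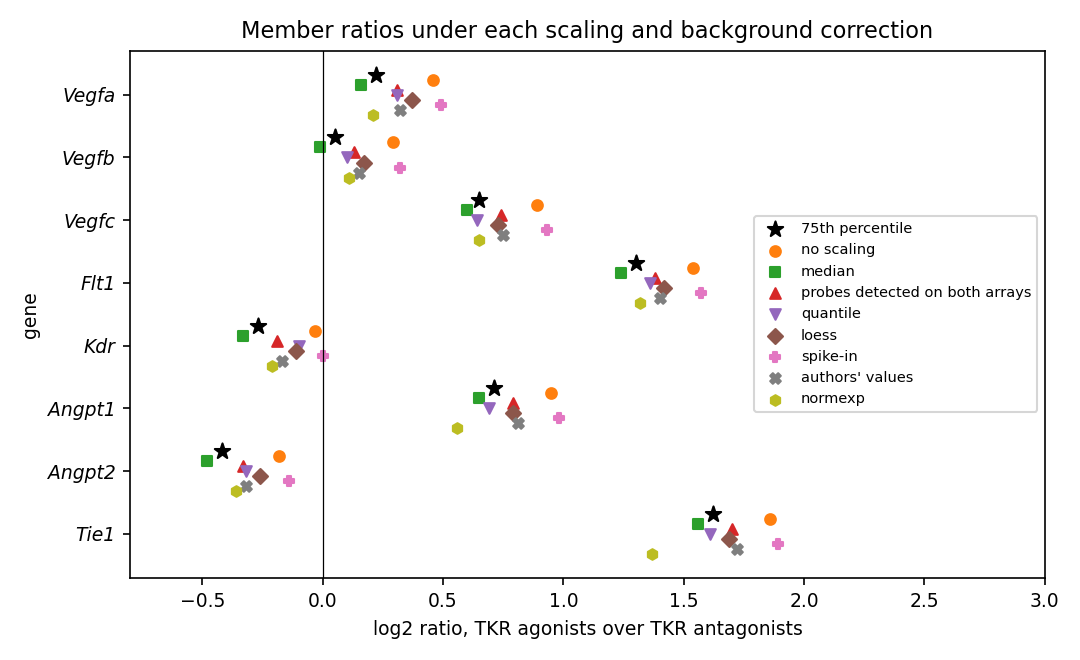
Log2 ratio of the 8 measured genes under the 75th percentile scaling (star) and 8 other scalings or background corrections. Scaling by a constant shifts all genes equally while quantile, loess and normexp do not, Flt1 is never under 1.24 nor Tie1 under 1.37, Angpt2 stays below 0, and the points of Kdr and Vegfb reach 0.

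Further genes of these pathways were given the same description. Of 20 listed co-receptors, further ligands and regulators, 19 were measured on both arrays, with a median log2 ratio of 0.85, 13 above 0, 6 past 2-fold upward and 0 downward. Among all measured genes 37.7% were above 0 and 4.01% at least 2-fold higher.

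Of the further ligands, Vegfd, the other ligand of FLT4, was read at 10 spots, which spanned 722 to 854 on the agonist array against 222 to 256 on the other. The spot ranges do not overlap, and the log2 ratio was 1.46 with an SD of 0.07 over spots, or 2.75-fold. Pgf (placental growth factor), a ligand of FLT1, had a log2 ratio of 0.40 ± 0.21. Angpt4, another angiopoietin, was dim on the agonist array and not well above background on the antagonist array (30 and 12.2), with a bound of 1.28-fold. Svep1, an extracellular protein that binds TIE1, had a log2 ratio of 0.91. The angiopoietin-like proteins differed in sign. Angptl4, a lipase inhibitor, read 11776 and 6948, a log2 ratio of 0.52, whereas Angptl1 and Angptl2 were at -0.66 and -0.34.

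The co-receptor Nrp1, which presents VEGF-A to KDR, read 342 and 152, a log2 ratio of 0.93 ± 0.21. Nrp2, which partners FLT4, read 5614 and 6378, a log2 ratio of -0.43 ± 0.20, and -0.04 with its other probe. The neuropilins thus lay on opposite sides of 0 with their brighter probes. Ptprb, the endothelial phosphatase that removes phosphate from TEK, read 2391 and 612, and its log2 ratio of 1.73 ± 0.20 (3.31-fold) was the highest of this list. It was 1.5 with its other probe. Of semaphorin genes, some of which share neuropilins with VEGF, the ligand gene Sema3f was at 1.20. Plxnd1, a semaphorin receptor not given here as its partner, was at 0.85.

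Genes that respond to VEGF or act beside it in sprouting endothelium lay on both sides of 0. Notch4, a Notch receptor of endothelium, read 2342 and 655, a log2 ratio of 1.60 or 3.03-fold. Its ligand Dll4 was at 0.73. Esm1, a secreted product of VEGF-stimulated tip cells, read 14314 and 5840, a log2 ratio of 1.05, and Rasip1, needed for the vessel lumen, was at 1.08. Cxcr4, a chemokine receptor of tip cells, was at 0.90. Apln, a peptide made by tip cells, was the lowest gene of the list, with 1350 and 2218 and a log2 ratio of -0.96 ± 0.20, while its receptor Aplnr was at -0.02. Dusp5, a phosphatase of the ERK pathway, was dim and at -0.18 ± 0.42. Tip cell genes therefore did not share 1 direction, with Esm1 higher and Apln lower on the agonist array.

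Markers of endothelium were higher on the agonist array as well. All 20 listed endothelial genes, which include no VEGF or angiopoietin gene, were measured and above 0, against 37.7% of all measured genes. The 20 had a median log2 ratio of 0.92 and a range from 0.28 to 2.49, and 7 were at least 2-fold higher, against 4.01%. Their summed signal was 122940 with the agonists against 59835 with the antagonists, and none of their markers was at background. The highest were Vwf, the clotting factor carrier of endothelium, at 2.49 (309 and 46.3) and Ecscr, an endothelial surface protein, at 1.77. The lowest were Eng, a TGF-beta co-receptor, at 0.28 and Erg, an ETS factor of endothelium, at 0.32. In RNA of whole ovary pieces, fewer cells of a type and less RNA per cell cannot be told apart, and the part of the endothelial share in the ratios of the receptors was not tested.

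Set beside those 20 markers, the genes of the group fell on both sides. Tie1 was 0.70 above the endothelial median, with 2 of the 20 markers higher, and Flt1 was 0.38 above it, with 4 higher. All 20 markers were higher than Angpt2 and than the brighter Kdr probe, which lay 1.34 and 1.19 below the endothelial median. The dimmer Kdr probe, at 0.38, lay above the ratios of Eng and Erg. Angpt1 and Vegfc, which are made largely outside endothelium, had 15 of the 20 markers above them, and all 20 were above Vegfa and Vegfb.

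**Figure D5:**
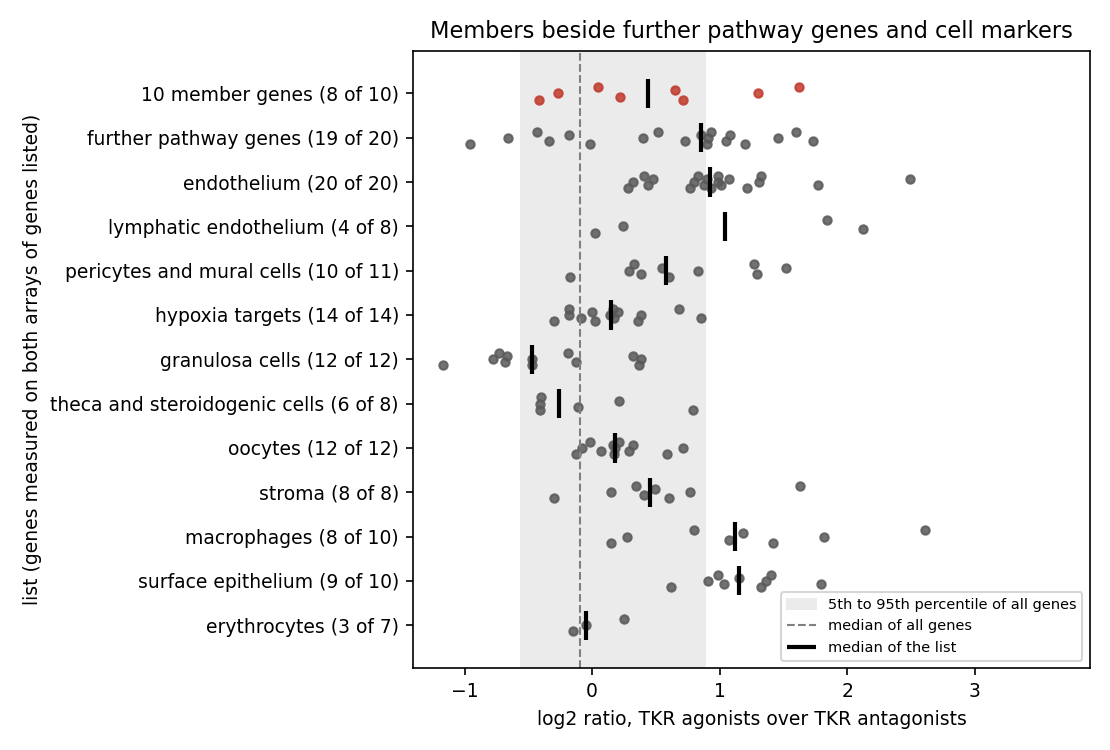
Log2 ratio (TKR agonists over TKR antagonists) of each gene measured on both arrays, by list, with the median of each list as a black bar and the median and the 5th to 95th percentile range of all measured genes in grey. The group described here (red) spans from -0.42 to 1.62, whereas all 20 endothelial genes lie above 0 and granulosa cell genes centre on -0.47.

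Lymphatic markers bear on Vegfc and Flt4. Of 8 listed genes only 4 were measured on both arrays, with a median log2 ratio of 1.04 and a summed signal of 9465 and 7135. This median was not stable, at 0.24 without a filter on dim probes, 0.13 with bright probes only, 0.52 with normexp and 1.84 with dim values at the floor. Mmrn1 and Lyve1 were at 2.12 and 1.84 but dim on the antagonist array (41.8 and 32.3). Itga9 and Pdpn, which other ovarian cells also express, were at 0.24 and 0.02, and Pdpn was at -0.22 with its other probe. Itga9 (4695 and 3366) and Pdpn (4418 and 3695) made up most of the unscaled sums. The cells behind the signal of these 4 genes were not determined. Stab2, an endothelial hyaluronan receptor, had a bound of 4.05-fold, which leaves out the software error. Prox1, the defining transcription factor of lymphatic endothelium, and Reln were not well above background on either array, and no probe was matched to Ccl21a. The part of lymphatic vessels in the ratios of Vegfc and Flt4 was not tested.

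Mural cells, which wrap capillaries and are a known source of Angpt1, were represented by 10 measured genes of 11. The 10 had a median log2 ratio of 0.58, and 9 were above 0, against 37.7% of all measured genes. Their unscaled summed signals were 77840 and 64653, of which the brighter Mcam probe made up 53877 and 51271. Abcc9 and Higd1b, both typical of pericytes, were highest at 1.52 and 1.29. Pdgfb, the endothelial signal that recruits pericytes, was at 0.29, or 0.66 with its other probe. Mcam was at -0.17, or 0.83 with its other probe. Des had a bound of 2.63-fold, which leaves out the software error. The ratio of Angpt1, 0.71, lay within this range, and the part of mural cells in it was not tested.

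Targets of hypoxia, a known inducer of Vegfa, ranged from -0.30 to 0.85. All 14 listed genes were measured, with a median log2 ratio of 0.15. The median was 0.39 without scaling and 0.43 with the spike-in controls. Their unscaled summed signals were 201359 and 159788, of which Ldha made up 112811 and 86653. Of the 14, 10 were above 0, against 37.7% of all measured genes, and none was past 2-fold either way. Egln3 and Ndrg1 were highest at 0.85 and 0.68, and Higd1a was lowest at -0.30, followed by P4ha1 and Hk2, both at -0.18. Vegfa, at 0.22, was among these values, and the part of hypoxia in its ratio was not tested.

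Cells of the follicle, which supply much ovarian VEGF-A, differed from the vessels. Of 12 granulosa cell genes, all measured, 3 were above 0 and the median log2 ratio was -0.47, with summed signals of 125501 and 130647. Inhbb and Fst, parts of the activin system, were lowest at -1.17 and -0.78, and Amhr2 and Cyp19a1 highest at 0.38 and 0.37. Of 8 theca and steroidogenic genes 6 were measured, with a median of -0.26, which was 0.02 on the spike-in controls. Cyp11a1 and Hsd3b1 were at 0.79 and 0.21, and Cyp17a1 and Ptch1 both at -0.41.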

How the data were processed

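RNA was extracted by the authors from cultured ovary pieces, labelled with Cy3 and hybridised to Agilent SurePrint G3 mouse arrays, 1 array for TKR agonists and 1 for TKR antagonists, taken from the sample labels. Both arrays lay on the same slide and scan. The intensity of every spot was deposited on a linear scale, as the background-corrected processed signal of Agilent Feature Extraction 10.10.1.1, without scaling between arrays. The authors also deposited a table of intensities, which equalled that signal times 1 constant per array (1.99 and 2.19, largest relative deviation 4.97e-10) and was used as an alternative.

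Control spots and spots flagged as outliers were left out, the remaining spots of a probe were averaged, and log2 of the signal minus the log2 of the 75th percentile of the array was compared between arrays. A probe counted as well above background when over 50% of its spots did. For a probe well above background on 1 array, the bound used the lowest signal well above background on the other array. The probe's own signal there was used where higher, and the software error was left out. Names came from RefSeq accessions, with a symbol for 27230 probes, since the files hold no gene name column. Coordinates come from RefSeq GRCm38.p6 only, as the array design uses mm9. Signals of different probes were used only to pick the brighter probe of a gene and as sums over a list, since probes differ in brightness for the same amount of RNA, and the number of arrays limits the precision. The calculation of ratios was checked on data simulated from these arrays. A log2 ratio of 2, up or down, was given to 200 of 33073 measured probes, with a noise SD of 0.15. All 200 were recovered past 2-fold, and 0 unchanged probes were called. Changes this large were easy to find. The check covers the calculation only, not smaller ratios, the bounds or dim probes.

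The genes and lists were chosen with earlier results of these data known. The genes named are all members with every probe, every further pathway gene, and of each other list the 2 highest and the 2 lowest ratios among measured genes. With 2 arrays no likeness between gene patterns can be computed, so no most similar genes are named. Alternatives were other scalings (none, median, probes detected on both arrays, quantile, loess, spike-in controls, the deposited table), normexp background correction with an offset of 50, medians over spots, outlier spots kept, the mean of a gene's probes, looser and stricter filters on dim signals, and 1.5-fold in place of 2-fold. Software was Python 3.11.15, numpy 2.4.6, pandas 2.3.3, R 4.3.3 and limma 3.58.1.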

Additional observations from a re-analysis of the deposited data

How the results depend on the processing

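No paired analysis was possible because only 1 array was made per condition and nothing was tested, and no array could be left out. Over the alternatives, 115 of 135 values of single genes moved by less than the software error and 20 by more, and 3 had the other sign from the reported value or lost it (Vegfb on median scaling, and Kdr with spike-in scaling and with the mean of its probes). Many of these values could not move, so the count is no measure of robustness. No member spot was flagged as an outlier, and the probes used had 1 or 2 spots, so medians equalled means. The mean of a gene's probes could alter only Vegfa and Kdr, and the filters on dim signals only Flt4 and Tek. Flt4 and Tek were also judged against wide errors of 0.81 and 0.38. Scaling by a constant shifts every ratio equally. The share of probes past 2-fold that were higher was 79.3% as reported, 93.9% without scaling and 94.9% when scaled on the spike-in controls.

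The median log2 ratio of the genes of the group was 0.68 without scaling, 0.71 when scaled on the spike-in controls, 0.68 both without a filter on dim probes and with dim values at the floor, and 0.05 with bright probes only, where 5 genes were left. The number of these genes at least 2-fold higher, 2 as reported, was 4 without a filter, with dim values at the floor and at a 1.5-fold threshold, and 1 with bright probes only. Tek and Flt4 enter the median and the count without a filter because they are then taken at face value. With dim values at the floor they enter at their bounds.

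Of all measured probes, 890 (2.69%) were at least 2-fold higher. This number was 1499 without scaling, 1625 with spike-in scaling, 410 with normexp, 3339 without a filter, 254 with bright probes only and 2299 at 1.5-fold. At least 2-fold lower were 233 (0.705%), against 98 without scaling, 88 with spike-in scaling, 149 in the deposited table, 60 with normexp, 2333 without a filter, 450 with dim values at the floor, 33 with bright probes only and 1620 at 1.5-fold.

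Of the lists, the medians without scaling and those on the spike-in controls were, in this order, 1.09 and 1.13 for the further pathway genes, 1.16 and 1.19 for endothelium, 1.28 and 1.32 for lymphatic endothelium, 0.82 and 0.85 for mural cells, 0.39 and 0.43 for hypoxia targets, -0.23 and -0.19 for granulosa cells, -0.01 and 0.02 for theca, 0.42 and 0.45 for oocytes, 0.69 and 0.72 for stroma, 1.37 and 1.40 for macrophages, 1.39 and 1.42 for surface epithelium, and 0.19 and 0.23 for erythrocytes. With normexp they were 0.64 for the further pathway genes, 0.52 for lymphatic endothelium and 0.84 for surface epithelium. The lymphatic median was 0.24 without a filter, 1.84 with dim values at the floor and 0.13 with bright probes only, and the theca median 0.05 with bright probes only. The cause of these shifts was not tested.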

Other observations

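Other cell types of the ovary were described by the same lists. The shares among all measured genes were 37.7% above 0 and 4.01% at least 2-fold higher. Of 9 measured surface epithelium genes (of 10), all were above 0, with a median log2 ratio of 1.15 and 6 at least 2-fold higher, led by Lrrn4 at 1.79 and Krt19 at 1.40, with Upk3b at 0.62 and Krt8 at 0.91 lowest. Macrophage genes (8 of 10 measured) had a median of 1.12, with all 8 above 0 and 5 at least 2-fold higher by their brightest probes. The 3 measured probes of Csf1r spanned -0.09 to 0.15, and the 2 of Adgre1 were at 0.72 and 1.42. Cx3cr1, the fractalkine receptor, read 1176 against 163, a log2 ratio of 2.61 that is higher than that of every VEGF or angiopoietin gene measured on both arrays, and Mrc1 was at 1.82, while Csf1r and Cd14 were at 0.15 and 0.27. Stromal genes (8 of 8) had a median of 0.45, from Lum at -0.30 and Col1a2 at 0.15 to Tcf21 at 0.77 and Postn at 1.63. Oocyte genes (12 of 12) had a median of 0.18, from Zp3 at -0.13 and Gdf9 at -0.08 to Figla at 0.59 and Kit at 0.71. Erythrocyte genes were mostly dim, and the 3 measured of 7 were at 0.25 (Slc4a1), -0.05 (Hba-a2) and -0.15 (Hba-a1).

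Kdr was not the only gene whose probes had opposite signs. Of the 3177 genes with 2 measured probes, 798 (25.1%) had log2 ratios on opposite sides of 0. The brighter probe had the lower ratio in 1732 of them (54.5%), with a median difference, brighter minus dimmer, of -0.03. This difference was -0.65 for Kdr, -1.0 for Mcam, -0.39 for Nrp2 and 0.69 for Foxl2, a granulosa cell gene chosen for mention after its values were seen.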
